A study of Mus musculus with 12 samples.

Results

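Upper-layer projection neurons from mouse neocortex were compared across birth, at embryonic day 17.5 (E17.5) and at postnatal day 1 (P1), by ATAC-seq, in which a transposase cuts accessible DNA and leaves sequencing adapters there. Each stage had 2 lists of peaks, the stretches where cuts pile up. The peaks of these 4 lists and of the other 8 lists of the series were merged into 498516 regions, and a list counted as open at a region where its peaks covered 1 bp or more. A region was closed after birth when open in both E17.5 lists and in neither P1 list, and opened after birth in the opposite case. By this rule 66352 regions closed, 13.3% of all regions, and 17029 opened, 3.42% of all regions, which makes 83381 members in all. A further 25956 regions were open in all 4 lists and are called kept.

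All mice were of the strain CD1, and the tissue was the neocortex. Upper-layer neurons were marked at E15.5 by in utero electroporation of a plasmid with GFP behind a Cdk5r promoter, collected at E17.5, P1 or P5, and purified as GFP-positive cells by flow sorting. The marked neurons are thus progeny of the cells that took up the plasmid on that day, as far as they kept it, and not all neurons of the upper layers. Deep-layer neurons, used here only for reference, came from mice with the transgene Golli-GFP at 3 stages, E13.5, E16.5 and then E18.5, with 2 lists per stage. Per the labels, 2 to 8 embryos were pooled for a replicate, and nothing says whether the replicates of a stage came from separate litters, so the spread between lists may be technical. Cell identity was not checked, since the marker genes chosen for this could not be placed on the build of the files, and gene names are not analysed here.

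Upper-layer neurons are born late in cortical neurogenesis, migrate outward past the deep-layer neurons and connect cortical areas and hemispheres with each other. Around birth many of them are finishing migration and growing axons, and dendrites and synapses follow in the postnatal weeks. In a cell, accessible DNA lies mostly at promoters, which many cell types share, and at enhancers, whose use differs with cell type and age.

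The 4 lists differed in length and in peak width before any region was compared. The E17.5 lists held 164508 and 123229 peaks, a mean of 143868 ± 29189 (SD, n = 2), and the P1 lists 114990 and 120206, a mean of 117598 ± 3688 (SD, n = 2). Median peak widths were 489 and 481 bp at E17.5 and 303 and 302 bp at P1, so the stages did not overlap in width. The E17.5 lists covered 100.4 and 74.7 Mb and the P1 lists 45.3 and 47.3 Mb. Peak names in both E17.5 lists carried the same library name, so both lists may come from 1 library. The counts of the sets and their shares in the P5 and deep-layer lists are also given with either list alone, and most other results for the pair only. The list labelled P1 replicate 3 carried the name of a second replicate. No numbers of reads were used, so list length stands for depth, and fewer accessible cells cannot be told apart from less accessibility per cell.

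Most regions that were open in both E17.5 lists were not found in either P1 list. Of 110937 such regions, 59.8% had closed, 23.4% were kept, and 16.8% were open in 1 of the P1 lists. Of the last, 13011 were open in P1 replicate 3 and 5618 in P1 replicate 1. Taken singly, P1 replicate 1 was open in 28.5% of the regions of both E17.5 lists (95% Wilson interval 28.2 to 28.7%) and P1 replicate 3 in 35.1% (34.8 to 35.4%), intervals that cover counting error only.

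Seen from P1, the larger share of shared regions had been open before birth. Of the 44439 regions open in both P1 lists, 38.3% had opened and 58.4% were kept, and 3.27% were open in 1 of the E17.5 lists. E17.5 replicate 1 was open in 60.8% of the regions of both P1 lists and replicate 2 in 59.3%. Few regions had an intermediate pattern here: 1049 were open in both P1 lists and E17.5 replicate 1, and 405 in both P1 lists and E17.5 replicate 2. If the E17.5 lists come from 1 library, few such patterns would arise in any case.

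Closed regions were 3.90 times as many as opened ones, but the lists of the 2 stages matched each other to different degrees. Of the regions open in either E17.5 list, 66.0% were open in both, against 24.9% for the P1 lists. The E17.5 lists may come from 1 library, so their closer match need not be a trait of the stage. Of the open regions of E17.5 replicate 2, 2.37% were in no other list. P1 replicate 1 alone was open in 57342 regions and P1 replicate 3 alone in 53874, while E17.5 replicate 1 alone was open in 45049 and replicate 2 alone in 6561. In pairs of single lists, E17.5 replicate 1 had 1.68 times as many regions of its own as P1 replicate 1 (126412 against 75060) and 1.65 times as many as P1 replicate 3. For E17.5 replicate 2, whose length was close to that of the P1 lists, the ratios were 1.12 and 1.07. When a region had only to be open in either list of one stage and neither of the other, opened regions outnumbered closed ones, 128245 to 117962. With E17.5 represented by replicate 1 alone, 111401 regions closed and 17434 opened, and with replicate 2 alone 72913 closed and 18078 opened. With P1 represented by replicate 3 alone, 71970 closed and 70903 opened, and with replicate 1 alone 79363 closed and 74371 opened, so the ratio fell to 1.02 and 1.07. How far closed regions outnumbered opened ones therefore depended on requiring both P1 replicates. Among these settings the direction was reversed only when either list of a stage sufficed. With 2 lists against 2, no two-sided exact p can fall under 0.333, and no region was tested.

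**Figure D1:**
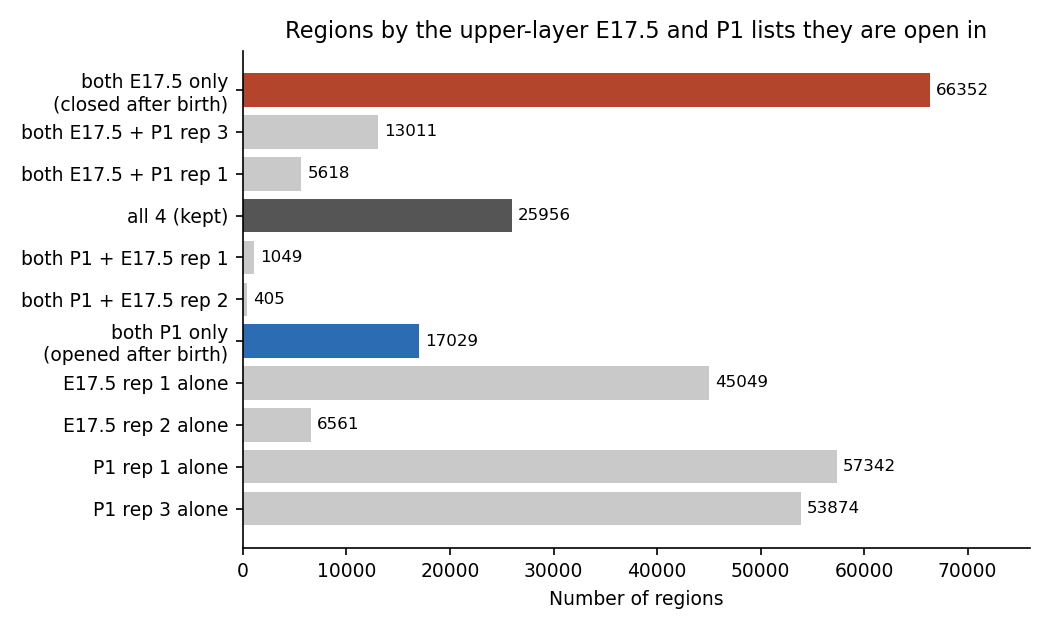
Number of regions (horizontal axis) by the upper-layer E17.5 and P1 lists in which they were open. The 202127 regions open in none of the 4 lists and those open in 1 list of each stage are not drawn. Of the patterns drawn, the 66352 closed regions are the longest bar, and the next longest after it are the regions of a single P1 list, 57342 and 53874.

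The edge of the rule held few regions. Of the closed regions, 974 (1.47%) lay within 100 bp of a region open at P1, and of the opened regions 245 (1.44%) lay within 100 bp of a region open at E17.5. The median distance from a closed region to the nearest region open at P1 was 6126 bp, and from an opened region to the nearest open at E17.5 it was 7625 bp. At the other edge, 79 of the 44585 regions open in both E17.5 lists and in at least 1 P1 list (0.177%) had under 10% of their length covered in every P1 list.

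In the P5 lists, which the rule did not use, few of the closed regions were open and many of the opened ones were. Median peak widths were 316 and 326 bp at P5, near those of P1, and 390 to 476 bp in the deep-layer lists. Regions found in no other list made up 38.4 and 35.4% of the P1 lists and 43.8 and 28.3% of the P5 lists. In the prenatal lists they made up 2.37 to 15.2%. The part of these list differences in the shares at P5 and in deep-layer neurons was not tested. Of the closed regions, P5 replicate 1 was open in 7.25% and replicate 2 in 10.9%, a mean of 9.08% ± 2.60 (SD, n = 2). Opened regions were open in 48.9% and 45.9%, a mean of 47.4% ± 2.13, and kept regions in 82.3% and 90.9%, a mean of 86.6% ± 6.06 (SD, n = 2 each). Over all 498516 regions the mean was 22.7%. The share of closed regions was lower than that of all regions in both P5 lists. The share of opened regions, as defined by both P1 lists, was higher in both. By region, 56317 closed regions (84.9%) were open in neither P5 list and 2020 (3.04%) in both. Among opened regions the states at P5 were about evenly spread, with 5273 (31.0%) open in both lists, 5608 (32.9%) in 1 and 6148 (36.1%) in neither. Thus 6148 regions were open in both P1 lists and in no other upper-layer list. When the rule used P1 replicate 3 without replicate 1, the mean share of opened regions found at P5 was 20.4% and that of closed regions 11.7%, and without replicate 3 these were 21.4 and 13.8%. When either P1 list sufficed, the share of opened regions was 17.4%. These 3 shares of opened regions are lower than the 22.7% of all regions, but the 2 measures are unlike. The 22.7% includes regions found in 1 P5 list and in no other list, 54762 for replicate 1 and 28566 for replicate 2. No closed, opened or kept region can be among them. This limit holds for the shares under the main rule as well, so no direction is drawn from any comparison with the 22.7%.

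In deep-layer neurons closed regions were open far more often than opened ones. At E13.5 the closed regions were open in 57.3% and 63.2%, at E16.5 in 48.2% and 36.9% and at E18.5 in 28.8% and 45.2% of cases (replicates 1 and 2). The group means were 60.3% ± 4.21, 42.6% ± 7.94 and 37.0% ± 11.6 (SD, n = 2 each), so the E16.5 and E18.5 lists overlapped with each other and both lay below E13.5. The lists were also longest at E13.5, with means of 141942, 113026 and 110146 peaks, and the part of list length in this order was not tested. Opened regions were open in 3.26% and 4.34% at E13.5, in 2.75% and 4.86% at E16.5, and in 18.8% and 3.88% at E18.5. The list of deep-layer E18.5 replicate 1 stood above the other 5 lists, whose mean was 3.82% ± 0.838 (SD, n = 5). Kept regions were open in 90.2% ± 4.24, 88.5% ± 0.913 and 92.1% ± 3.13 at the 3 stages (SD, n = 2 each). Over all regions the corresponding means were 26.5, 20.9 and 20.8%. These means include regions found in a single deep-layer list and in no other list, which no closed, opened or kept region can be. The measures are thus unlike, and no direction is drawn from them.

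**Figure D2:**
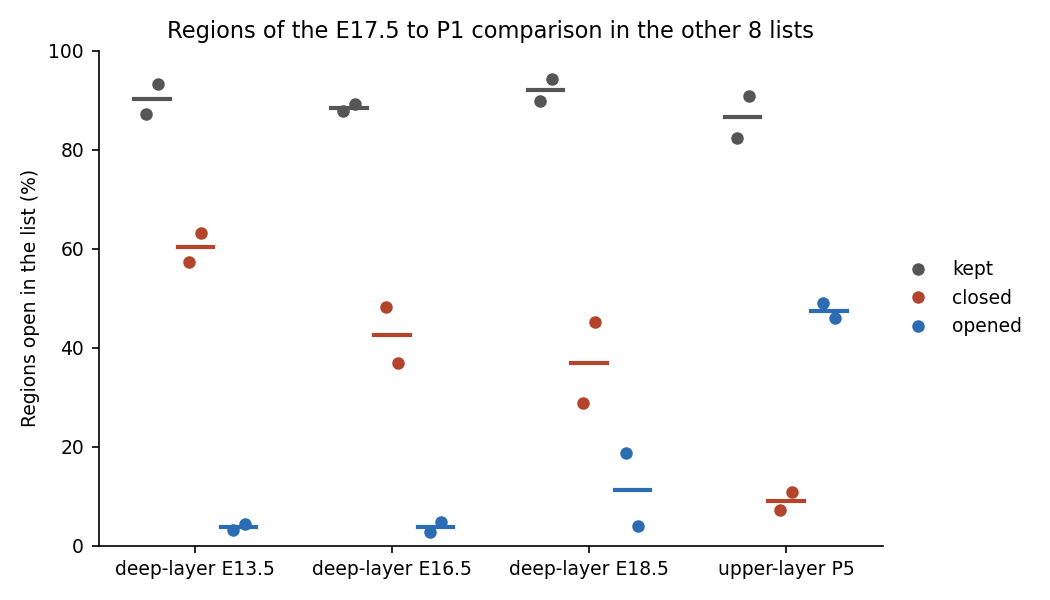
Share of kept, closed and opened regions (vertical axis, percent) that were open in each of the 8 lists the rule did not use, with 1 point per list and a bar at the mean of the 2 lists of a group. Closed regions lie between 28.8 and 63.2% in deep-layer lists and at 7.25 and 10.9% at P5, and opened regions lie at 45.9% or more only at P5.

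Over the 6 deep-layer lists, the share of closed regions exceeded that of opened regions by 40.3 ± 17.6 percentage points (SD, n = 6), with the closed share higher in 6 of 6 lists. Kept regions exceeded closed ones by 43.6 ± 12.6 points and opened ones by 83.9 ± 6.83 points, again in 6 of 6 lists. An exact sign-flip permutation test over the 6 lists gave p = 0.03125 for each of the 3 differences, two-sided, which is the smallest that 6 lists allow, and 0.03125 after Benjamini-Hochberg adjustment over the 3. The 6 lists are pairs of 3 stages and thus not 6 independent units. All are prenatal, so the age of the deep-layer neurons and their class cannot be told apart. Kept regions were chosen for being open in all 4 lists of the comparison and were longer than the others. Closed regions were chosen as open in the E17.5 lists, which are prenatal like the 6 lists, and opened regions as closed there. Closed regions were also longer than opened ones. For each of the 3 differences, the test therefore cannot separate the regions from the way they were chosen. Without deep-layer E18.5 replicate 1 the closed regions were open in 50.2% of cases on average. With E17.5 replicate 1 alone in the rule the closed share was 34.5% and with replicate 2 alone 44.5%. The opened share, 6.31% over the 6 lists, was 3.62% without P1 replicate 1 in the rule and 2.85% without P1 replicate 3.

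By region, 12292 closed regions (18.5%) had a peak in each of the 6 deep-layer lists and 14387 (21.7%) in none of them. Of the opened regions, 73 (0.429%) were open in all 6 and 12828 (75.3%) in none. Of the kept regions, 19910 (76.7%) had a peak in each of the 6. In no list other than the pair that defined them were 13132 closed regions (19.8%) and 5564 opened regions (32.7%) found. The same shares over all regions are not given here, so these values are not read as high or low.

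Closed and opened regions were narrower than kept ones. The median region length was 683 bp for closed regions (quartiles 493 and 958 bp), 538 bp for opened regions (400 and 755 bp) and 1279 bp for kept regions (953 and 1660 bp). Within single lists, the median of the widest peak in closed regions was 539 bp in E17.5 replicate 1 and 427 bp in replicate 2, against 976 and 905 bp in kept regions. In the P1 lists it was 334 and 326 bp in opened regions, against 544 and 591.5 bp in kept regions. In each of the 4 lists the regions that changed thus had the narrower peaks.

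The share of regions that closed fell with the width of the peak at E17.5. Among regions whose mean E17.5 peak width was 200 to under 300 bp, 85.3% closed and 4.14% were kept, while among those of 1500 bp or more 13.6% closed and 74.5% were kept. Between these, the closed share was 70.4% at 400 to under 600 bp, 44.2% at 800 to under 1000 bp and 30.1% at 1000 to under 1500 bp. At P1, 66.8% of the regions of 200 to under 300 bp had opened, against 36.1% at 400 to under 600 bp, 14.8% at 600 to under 1000 bp and 6.62% at 1000 to under 1500 bp. The widest P1 regions, of 1500 bp or more, had 67 opened regions among 768. List length differed between the stages as well, and its part in this relation was not tested.

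**Figure D3:**
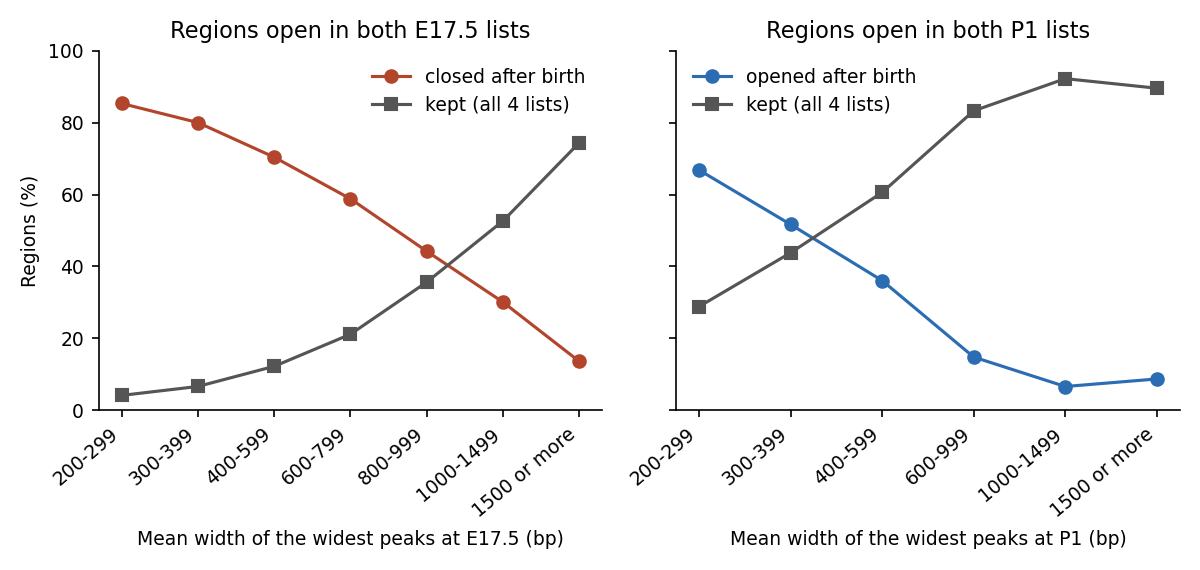
Share of regions (vertical axis, percent) that closed or were kept among regions open in both E17.5 lists (left), and that opened or were kept among regions open in both P1 lists (right), by the mean width of the widest peak in the 2 lists of that stage (horizontal axis, bp). The closed share runs from 85.3% in the narrowest class to 13.6% in the widest, and the opened share from 66.8% to 8.72%.

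Regions of similar width at E17.5 still differed in the deep-layer lists by whether the region later closed. In the narrowest class the mean share open in deep-layer lists was 27.5% for closed and 51.2% for kept regions. It was 46.7 against 82.3% at 400 to under 600 bp, 60.7 against 92.3% at 800 to under 1000 bp and 82.8 against 98.3% at 1500 bp or more. Closed regions stood below kept ones in each of the 7 width classes. At P5 the mean share of closed regions that were open ran from 6.30% in the narrowest class to 17.3% in the widest. For opened regions by P1 width, it ran through 30.0, 44.1, 61.4, 83.7 and 97.4% to 100% of the widest, so an opened region with a wide P1 peak was nearly always open at P5.

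Kept regions were also narrower after birth. The ratio of the mean P1 peak width to the mean E17.5 peak width had a median of 0.697 (quartiles 0.498 and 0.887), and 86.8% of kept regions were narrower at P1. Both P1 lists were narrower than both E17.5 lists in 18048 kept regions (69.5%), and both were wider in 1395 (5.37%). The covered length in a kept region had a median of 961.75 bp at E17.5 and 621.5 bp at P1. Over all peaks of the lists, in any region, the ratio of median widths was 0.624. When a region counted as open only if 50% of it was covered, the log2 median ratio was -0.22 in place of -0.52.

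The widest regions of each set, taken by the smaller of the 2 defining peak widths, show these patterns one by one. The closed region chr13:98178318-98181139 (mm9, as are all positions here, counted from 1) had peaks of 2806 and 2785 bp at E17.5, 320, 492, 324 and 256 bp in the deep-layer lists of E13.5 and E16.5, and none in the deep-layer E18.5, P1 or P5 lists. It was open in upper-layer neurons before birth and, with much narrower peaks, in younger deep-layer neurons. The closed region chr4:35641523-35643971 had peaks of 2314 and 2441 bp at E17.5 and 2380 and 2411 bp in the deep-layer E13.5 lists. Its deep-layer peaks were 1067 and 655 bp at E16.5 and 984 and 1316 bp at E18.5, all narrower than at E13.5, and it was closed in the P1 and P5 lists.

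The closed region chr8:46642991-46645273, with 2197 and 2212 bp at E17.5, had peaks in each of the 6 deep-layer lists and none at P5. Closed regions were not always closed at P5. The region chr11:92958356-92961464 had peaks of 2705 and 3022 bp at E17.5, none at P1, and 686 and 563 bp at P5. On the X chromosome, chrX:38753235-38755584 had 2199 and 2333 bp at E17.5, none at P1, and 469 and 802 bp at P5. Both were open in all 6 deep-layer lists.

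The widest opened regions were all open in both P5 lists and shared a peak in deep-layer E18.5 replicate 1. The region chr15:75933130-75936302 had peaks of 2369 and 3070 bp at P1 and 3173 and 2799 bp at P5, with 1836 bp in deep-layer E18.5 replicate 1 and 327 bp in E16.5 replicate 2. The region chr17:12209238-12212095 had 2585 and 2362 bp at P1 and 2369 and 2821 bp at P5, and its only prenatal peak, of 1780 bp, was in deep-layer E18.5 replicate 1. The same held for chr5:68610496-68613290 (2283 and 2579 bp at P1, 416 bp in deep-layer E18.5 replicate 1), chrX:89086534-89089752 (2281 and 2573 bp, and 1861 bp) and chr9:80849694-80852013 (2258 and 2148 bp, and 1998 bp). Each of these 5 regions was thus absent from E17.5 and from deep-layer E18.5 replicate 2.

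The widest kept regions included stretches of mitochondrial DNA, which carries no nucleosomes and is a usual by-product of ATAC-seq, at chrM:47-6690 and chrM:10849-16224. On chromosome 1, chr1:24618423-24622986 had peaks of 4497 and 4557 bp at E17.5 and 4522 and 4562 bp at P1, without the narrowing seen in most kept regions. Its peaks were of 4496 to 4562 bp in all 12 lists. The kept region chr17:13742862-13746037 fell from 3135 and 3122 bp at E17.5 to 2488 and 2485 bp at P1. These regions and chr17:39979950-39985734 were open in all 12 lists. Sequence was not used here, so whether reads with several matches in the genome gave any of these wide peaks was not tested.

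The median distance from a closed region to the nearest kept region was 48048 bp, and 9.06% of closed regions had one within 5 kb. For opened regions these values were 43843 bp and 10.5%. From an opened region the nearest closed one was at a median of 25163 bp, with 15.8% within 5 kb, and from a kept region at 15571 bp, with 21.7% within 5 kb. From a closed region the nearest opened one was at a median of 85362.5 bp, with 4.44% within 5 kb. From a kept region the nearest opened one was at a median of 55325 bp, with 6.95% within 5 kb. Closed regions were the most numerous and opened ones the fewest. No expected distance was computed, so the part of set size in these distances was not tested.

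Chromosomes differed in the share of regions that closed. On autosomes it ran from 48.0% of the regions open in both E17.5 lists on chromosome 11 to 65.7% on chromosome 3, and on the X chromosome it was 74.0% (2310 of 3122). Chromosome X lay outside the autosomal range for narrow and for wide peaks: under 600 bp, 91.8% of its regions closed against 64.4 to 81.1% on autosomes, and at 600 bp or more 53.6% against 30.0 to 49.6%. The share that opened, of regions open in both P1 lists, ran from 26.3% on chromosome 11 to 51.3% on chromosome 14 and was 59.4% on X (832 of 1400). The X chromosome therefore had higher shares of change in both directions. Its excess over the autosomes in closed share, 14.5 points, was 13.2 points without E17.5 replicate 1 and 11.8 points without E17.5 replicate 2. Its excess in opened share, 23.0 points, was 7.64 points without P1 replicate 1 and 7.19 points without P1 replicate 3. On the unplaced sequence assigned to the Y chromosome, 537 of 559 regions open in both P1 lists had opened. The P1 lists held 658 and 1154 peaks there, the P5 lists 147 and 96, the E17.5 lists 14 and 38 and the deep-layer lists 4 to 11. On the placed Y chromosome the P1 lists held 19 and 18 peaks, the P5 lists 3 and 13, the E17.5 lists 6 and 8 and the deep-layer lists 5 to 7. The sex of the pooled mice is not in the labels, and its part in these values was not tested.

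A minority of the opened regions was gathered in few windows. Over 2653 windows of 1 Mb, closed regions had a median of 25 and a maximum of 73 per window, and opened regions a median of 5 and a maximum of 183. There were 51 windows with 30 or more opened regions, a limit set after seeing the counts, and these held 3124 opened regions (18.3%) beside 216 closed and 489 kept ones. The 51 windows fullest of closed regions held 4.43% of closed regions, and those fullest of kept regions 8.24% of kept ones. With the dense windows included, 50% of all opened regions took 486 windows, against 526 for kept and 794 for closed regions. No opened region lay in 117 windows, against 308 with no kept and 110 with no closed one. In the 51 dense windows the ratio of closed to opened regions was 0.0691, against 4.76 elsewhere, and 81.7% of the regions open in both P1 lists had opened there, against 34.2% elsewhere. Without P1 replicate 1 or 3, the 51 fullest windows held 8.22 and 7.74% of the opened regions. The windows were chosen by their opened regions, so these values describe them and test nothing.

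**Figure D4:**
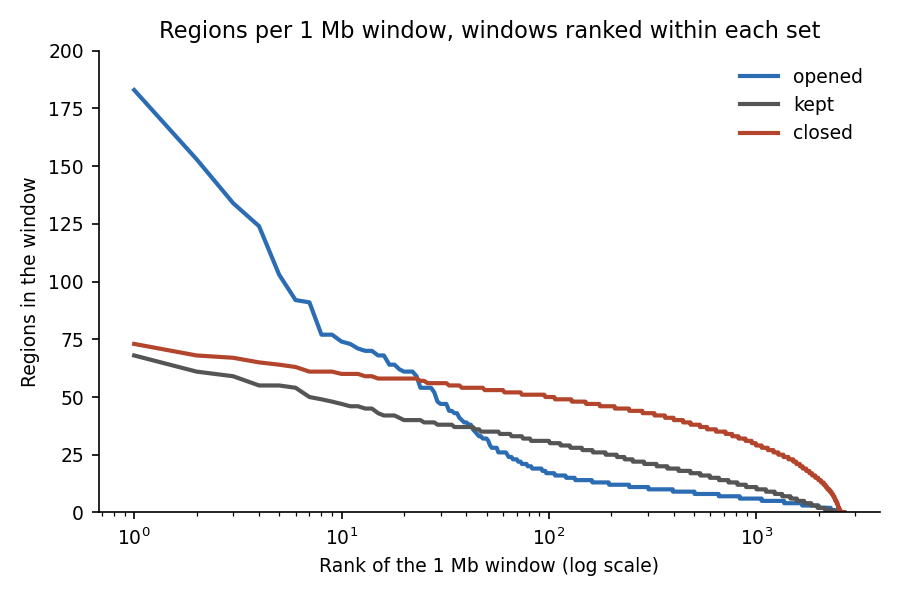
Regions per 1 Mb window (vertical axis) of closed, opened and kept regions, with windows ranked within each set from the fullest (horizontal axis, log scale). The opened regions reach 183 in a window and fall to under 30 after 51 windows, while closed regions begin at 73 and fall slowly.

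The dense windows lay on parts of many chromosomes. Chromosome 13 had 4 of them with 410 opened regions, chromosome 14 had 6 with 488, chromosome 4 had 6 with 365, chromosome 12 had 6 with 323, X had 7 with 370, and 12 were on unplaced sequence with 725, 5 of them with 359 on that of the Y chromosome. The other 10, with 443 opened regions, lay on chromosomes 1, 2, 3, 6, 7, 8 and 11. The fullest, chr13:66000001-67000000, held 183 opened regions and no region open in both E17.5 lists. In this window the E17.5 lists were open in 3 and 0 regions, the P1 lists in 232 and 263 and the P5 lists in 111 and 162. Of the deep-layer lists, E18.5 replicate 1 was open in 123 regions and the others in 2 to 12, so the E18.5 replicates differed there more than any other pair of prenatal replicates. The next fullest, from 17000001 to 18000000 on the unplaced Y sequence, held 153 opened regions, and no deep-layer list was open there. Beside the fullest window, chr13:65000001-66000000 held 134 opened regions, and chr14:43000001-44000000 and chr14:42000001-43000000 held 124 and 103.

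The fullest windows of closed regions held few opened ones. In chr4:82000001-83000000, 73 of the 111 regions open in both E17.5 lists had closed, with 17 kept and 5 opened, and in chr17:63000001-64000000, 68 of 86 had closed. Windows on chromosomes 3 (chr3:141000001-142000000, 67 of 87), 1 (chr1:51000001-52000000, 65 of 83) and 10 (chr10:24000001-25000000, 64 of 82) followed. In the window with most kept regions, chr10:79000001-80000000, 68 were kept and 21 of 96 had closed. The closed share ran from 65.8 to 79.1% in the 5 windows fullest of closed regions and from 13.2 to 39.6% in the 5 fullest of kept ones, a difference that the ranking by these counts builds in.

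Across all lists, the dense windows set P1 and P5 apart from most prenatal lists. They held 5.56 and 5.65% of the open regions of the P1 lists, which had served to choose them, and 4.36 and 4.93% of those of the P5 lists, which had not. In the E17.5 lists they held 0.675 and 0.897%. These lists had also served to choose the windows, since an opened region is closed in both, so their low values are partly built in. In 5 of the deep-layer lists, which had not served, the windows held 0.689 to 1.14%. Deep-layer E18.5 replicate 1 lay between, at 3.04%. Of the opened regions in the dense windows, 30.9% were open in deep-layer E18.5 replicate 1 and 1.41% in replicate 2, and of those elsewhere 16.1 and 4.43%. Outside the dense windows the X chromosome still had 45.9% of its shared P1 regions opened, against 33.6% on autosomes, and 74.3% of its shared E17.5 regions closed, against 59.7%.

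**Figure D5:**
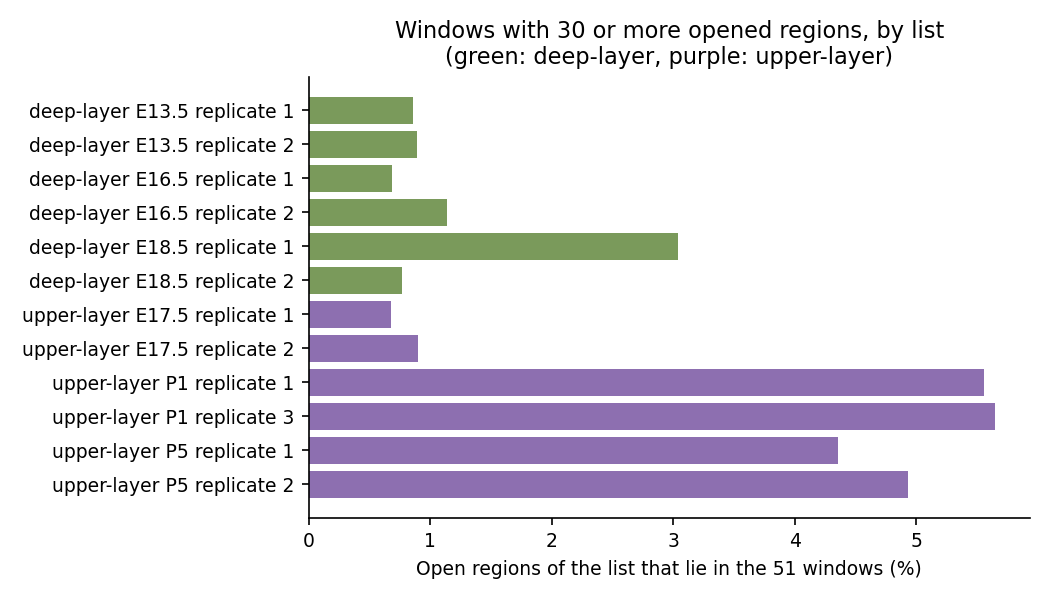
Share of the open regions of each of the 12 lists (horizontal axis, percent) that lie in the 51 windows with 30 or more opened regions, with deep-layer lists in green and upper-layer lists in purple. The P1 and P5 lists lie at 4.36% or more, deep-layer E18.5 replicate 1 at 3.04% and the other prenatal lists at 1.14% or less. The P1 and E17.5 lists served to choose the windows, and the P5 and deep-layer lists did not.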

How the data were processed

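The authors deposited 1 list of ATAC-seq peak positions per sample for 12 samples, and the coordinates in these lists are the only values used. Each peak has a position and a name, with no score or height. Per the submitters' processing notes, reads were handled with MACS2 2.1.0, Picard 1.14.0, Bowtie2 and cutadapt on the build mm9. The sources used here do not give peak thresholds, read totals, the treatment of reads with several matches or any shift for the transposase.

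Overlapping or touching peaks of the 12 lists were merged into regions, open where at least 1 bp was covered. All peaks were at least 200 bp wide. The width of a region in a list was that of its widest peak there. Shares per list carry 95% Wilson intervals, at most 0.751 points to either side. Shares were compared over lists by an exact sign-flip permutation test (Python 3.11.15, numpy 2.4.6, pandas 2.3.3, scipy 1.17.1, matplotlib 3.10.9), and the code that forms the sets was checked on simulated peak lists with known sets. Named regions are the 5 per set with the largest smaller defining peak width. An mm9 annotation and sequence were not used, so the planned gene lists, transcription starts and motifs are not analysed here. Sets, rules and settings were chosen with earlier results of these data known. Alternatives left out each replicate, equalised list length, and changed the overlap, merging, peak width, chromosomes, windows and the number of lists required.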

Additional observations from a re-analysis of the deposited data

Results flagged for a closer look

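Deep-layer E18.5 replicate 1 lay apart from the other 5 deep-layer lists in 3 measures, each by the gap to its nearest neighbour set against the range of the 6 lists (Dixon's test, critical value 0.625 for 6 lists). It was open in 18.8% of the opened regions, where the next highest list was at 4.86%, a gap of 0.869 of the range. It had 3.04% of its open regions in the dense windows, where the next was at 1.14%, a gap of 0.809. Of the 11463 regions it shared with no other deep-layer list, 27.0% were open in a postnatal upper-layer list on average over the 4 lists, where the next highest list was at 6.68%, a gap of 0.811. The shares of closed and of kept regions were tested in the same way, and no list passed. For closed regions this list was the lowest, at 28.8%, with a gap of 0.236, and for kept regions the largest gap was 0.153. The 6 lists come from 3 stages and are not replicates of 1 group, and chance marks about 1 group in 20. The 3 measures use the same list and are not independent. By P1 peak width, the share of opened regions open in this list ran from 8.09% in the narrowest class to 98.5% in the widest, against 2.64 to 10.4% in replicate 2 of the same stage.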

How the results depend on the processing

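The results were recomputed under 16 alternative settings. With each list left out in turn, closed regions numbered 71970 to 111401 (the highest without E17.5 replicate 2), opened regions 17434 to 74371 (70903 without P1 replicate 1 and 74371 without P1 replicate 3) and kept regions 26361 to 38967. The ratio of closed to opened regions ranged from 1.02 to 6.39 and was near 1 without P1 replicate 1 (1.02) or replicate 3 (1.07). Fewer lists were then required, which raises every count by construction. Over the same settings the mean share open at P5 ranged from 7.14 to 13.8% for closed, 20.4 to 48.5% for opened and 70.3 to 86.5% for kept regions, and the share of kept regions open in deep-layer lists from 84.7 to 90.3%. With either list of a stage sufficient, closed regions numbered 117962, opened 128245 and kept 50182, and the ratio was reversed at 0.920. The P5 shares were then 17.4% for opened and 63.7% for kept regions, and the deep-layer shares 33.9% for closed and 76.4% for kept regions. With the 4 lists thinned at random to 114990 peaks, 44077 regions closed, 16693 were kept and the ratio was 2.58. With 50% of a region required to be covered, 10691 were kept and the ratio was 5.999, with 6.06% of closed and 35.9% of opened regions open at P5 and 78.5% of kept ones in deep-layer lists. Without peaks under 300 bp, a setting added after seeing the data like the next pair, 7209 opened, the ratio was 8.32 and 52.9% of opened regions were open at P5. With the 96452 widest peaks of every list, 42712 closed, and 49.7% of opened regions were open at P5. Without the dense windows the last share was 44.7%. The cause of these shifts was not tested where it is not named. Of the values outside the counts and shares above, the excess of X over autosomes in opened share, 23.0 points, was 7.64 and 7.19 without P1 replicate 1 or 3 and 12.3 without the dense windows. The 18.3% of opened regions in the 51 fullest windows was 8.22 and 7.74% without P1 replicate 1 or 3. The excess of deep-layer E18.5 replicate 1, 15.0 points, was then 4.24 and 4.38. No paired analysis was possible, because nothing in the labels links a list of E17.5 to a list of P1. The replicate numbers, 1 and 2 at E17.5 and 1 and 3 at P1, give no such link. Alternatives for transcription starts, gene lists and motifs were not run. Depth is known only as list length, so a region with few reads can count as closed where a list is short.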
